A study of Homo sapiens with 18 samples.

Results

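The expression profile of LNCaP cells treated with the compound 2-77 was compared directly with that of cells treated with the compound ACBI. LNCaP is a human prostate adenocarcinoma line whose growth responds to androgens. The series holds 18 RNA-seq libraries of this line, 3 for each of 6 treatments of 72 h, and its title concerns inhibitors of the bromodomain of BRD7 in prostate cancer. The comparison uses 6 of the 18 libraries, 3 from cells given 2-77 at 1 µM and 3 from cells given ACBI at 0.2 µM. The 3 libraries of the DMSO vehicle serve as a reference level. Cells of every group were grown in RPMI medium with serum. The labels state no target for 2-77 or ACBI. The doses differed, so each difference between the compounds is also a difference between 1 µM of the one and 0.2 µM of the other. Nothing in the labels says that replicates came from separate cultures, so p-values measure the spread between these libraries, which may be technical.

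In luminal prostate cells androgen signalling induces genes of secretion, lipid metabolism and steroid response, and represses another set that includes the androgen-glucuronidating enzymes. Genes of DNA replication and mitosis are under periodic control. E2F factors act on the first group at the entry into S phase, and MYBL2, FOXM1 and the MuvB complex act on the second in G2 and mitosis, often through promoter elements named CHR and CCAAT box. The integrated stress response raises the transcription factor ATF4, which drives genes of amino acid transport and synthesis, and MYC drives genes of ribosome production.

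The 18 libraries held 16835113 to 36975052 counts, with 22950907 to 30626332 in the 2-77 libraries and 23165333 to 26150917 in the ACBI libraries. Of 20145 genes listed, 15422 passed a filter on low counts and were tested. The first principal component of the 6 libraries held 86.8% of their variance and separated the 2-77 libraries from the ACBI libraries. ACBI replicate 3 stood apart within its group. Ribosomal RNA genes took 8.6% of its counts, against 0.99% and 1.13% in the other ACBI libraries and 0.831% to 2.09% in the 2-77 libraries. Its part in the results was measured by leaving it out, and counts without it are given below for the gene groups described first. Levels are given as CPM, counts scaled to a common library total, which are relative to all RNA in a library and do not give RNA per cell. Differences are log2 fold changes of 2-77 minus ACBI ± standard error (SE), with p-values from edgeR's quasi-likelihood test adjusted by the Benjamini-Hochberg method over the 15422 genes, and a gene was called at an adjusted p below 0.05.

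The compounds left LNCaP cells in states that differed at most genes. Of 15422 genes, 5673 were higher with 2-77 (36.8%) and 5150 were lower (33.4%), so 70.2% were called in one direction or the other. Differences of at least 2-fold were more often towards higher levels with 2-77, with 1982 genes higher (12.9%) and 1021 lower (6.62%). Without ACBI replicate 3, 5540 genes were higher and 5136 lower. The median log2 fold change over all genes was 0.03 and the median size, regardless of sign, was 0.41. Libraries of the 2 groups did not overlap for 10860 genes (70.4%). Read against DMSO in the same fit, 6280 genes (40.7%) differed with 2-77, 3169 up (20.5%) and 3111 down (20.2%). With ACBI 11097 genes (72.0%) differed from DMSO, 5460 up (35.4%) and 5637 down (36.6%). These last comparisons share the DMSO libraries.

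Differences of at least 2-fold were more often towards higher levels with 2-77 at every level up to 100 CPM, and most so among weakly expressed genes. At a mean under 1 CPM over the 2-77, ACBI and DMSO libraries, 33.3% of 1802 genes were at least 2-fold higher with 2-77 and 9.93% were at least 2-fold lower. At 1 to 10 CPM the shares were 20.3% and 9.72% of 3344 genes, and at 10 to 100 CPM they were 7.43% and 4.3% of 7793 genes. Above 100 CPM the order was the opposite, with 4.99% of 2483 genes higher and 7.33% lower. Differences of at least 8-fold were found for 589 genes, 521 higher and 68 lower with 2-77. Of those 521 genes, 410 had a mean under 1 CPM with ACBI, and their median level was 2.09 CPM with 2-77, 0.0963 CPM with ACBI and 1.54 CPM in DMSO. Most of the largest higher levels with 2-77 were thus of genes near the limit of detection in the ACBI libraries. Protein-coding genes were called more often (38.4% higher and 35.0% lower of 13201) than long noncoding RNA genes (28.9% and 21.8% of 1147). At 2-fold or more the long noncoding RNA genes had the higher shares, 16% higher and 7.93% lower against 12.9% and 6.45%.

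**Figure D1:**
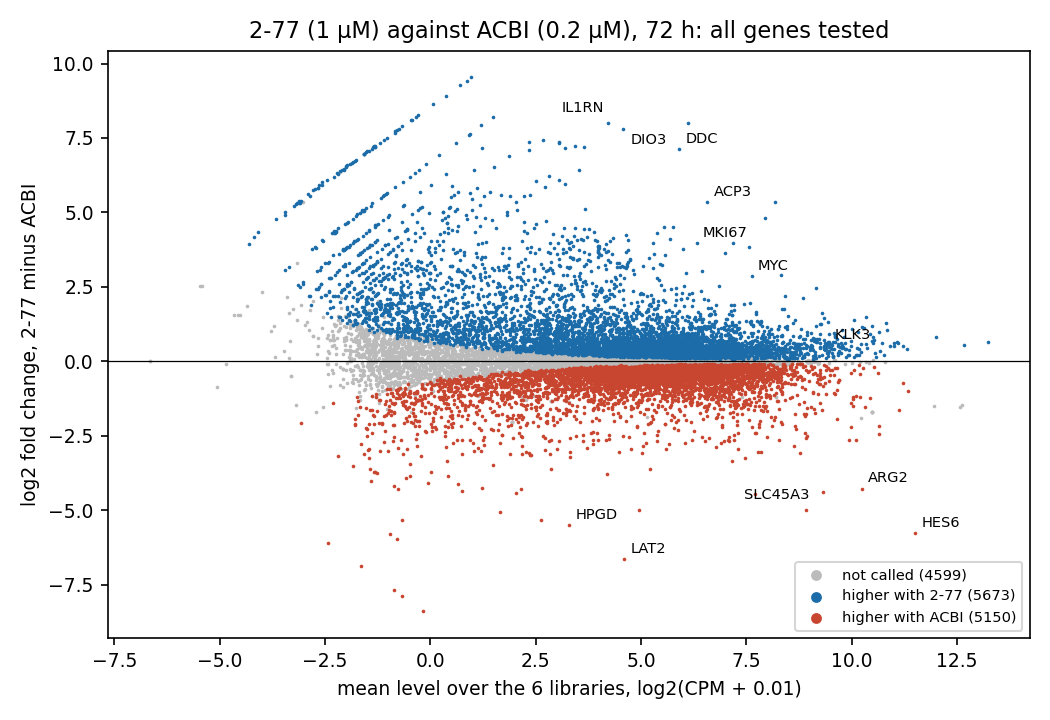
Each point is one of the 15422 genes tested, with its mean level over the 6 libraries on a log2 scale on the x axis and its log2 fold change, 2-77 minus ACBI, on the y axis. Blue points (5673) were higher with 2-77, red points (5150) were higher with ACBI and grey points were not called. Slanted rows at the left are genes with few or no counts in one group, whose fitted fold changes depend on the prior count of the fit.

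The genes with the largest higher levels with 2-77 encoded enzymes, receptors and secreted proteins that the ACBI libraries nearly lacked. DDC, the aromatic amino acid decarboxylase that makes dopamine and serotonin (chromosome 7, 50458436 to 50565405, minus strand, hg38), had 116, 120 and 120 CPM with 2-77 and 0.66, 1.04 and 0.829 CPM with ACBI. Its DMSO libraries had 53.6, 49.3 and 49.7 CPM. The 2-77 and ACBI libraries lay on opposite sides of DMSO (7.14 ± 0.09, or 141-fold, edgeR adjusted p = 1.88e-31).

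Genes of thyroid hormone handling were among them. DIO3, which inactivates thyroid hormone, had 46.4, 48.2 and 46.4 CPM with 2-77, 0.233, 0.217 and 0.166 CPM with ACBI and 38.6 to 42.2 CPM in DMSO. DIO1, another deiodinase, had 21.3, 20.6 and 22.2 CPM against 0.272, 0.087 and 0.0414 CPM. The differences of DIO3 and DIO1 were 7.80 ± 0.12 and 7.23 ± 0.19. IL1RN, the secreted antagonist of the interleukin-1 receptor, had 35.3, 38.5 and 36.3 CPM with 2-77 and 0.155, 0.174 and 0.0829 CPM with ACBI (8.01 ± 0.17). PLA2G2A, a secreted phospholipase A2, had 18.3, 16.9 and 19.5 CPM against 0.0388, 0.304 and 0.0414 CPM (7.15 ± 0.20). Both were above their DMSO levels with 2-77 and below them with ACBI, and PLA2G2A had the highest adjusted p of the 4, 2.41e-23. Also among the 12 genes so chosen were RYR2, a calcium release channel (7.35 ± 0.17), and OR51E1, an olfactory receptor expressed in prostate (7.19 ± 0.20). STC1, the hormone stanniocalcin 1, was another (7.36 ± 0.21).

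Other genes had too few counts with ACBI for a fitted size. MRGPRE, an orphan receptor of the Mas family, had 438 counts over the 2-77 libraries and 1 over the ACBI libraries, a ratio of 406 (95% counting interval 72.5 to 16100). For GLP1R, the receptor of glucagon-like peptide 1, the counts were 366 and 1, a ratio of 339 (60.5 to 13400). FAM177B had 366 and 2 counts, a ratio of 170 (46.6 to 1410). These intervals cover counting error only, and the lowest of their lower ends was 46.6. A further 10 genes had at least 100 counts with 2-77 and 0 with ACBI. Among them, chosen here after their values were seen, were KRT75, a hair follicle keratin, MYOD1, a muscle regulator, and AGT, the angiotensin precursor. Set against 3 counts over the group, they were at least 94.9-fold, 80.0-fold and 61.5-fold higher with 2-77. In the reverse direction 1 gene, MFSD4A-AS1, had 130 counts with ACBI and 0 with 2-77, at least 46.7-fold lower with 2-77.

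In the other direction, HES6 was the most abundant of the genes far higher with ACBI. HES6 (chromosome 2, 238238267 to 238240038, minus strand), a basic helix-loop-helix regulator of the HES family that promotes neuronal differentiation, had 111, 106 and 97.6 CPM with 2-77 and 5773, 5882 and 5545 CPM with ACBI. It had 187, 180 and 184 CPM in DMSO. The 2-77 libraries lay below DMSO and the ACBI libraries far above it, a difference of -5.78 ± 0.06 or 54.8-fold (adjusted p = 2.79e-30). HES6 alone took 0.512% to 0.584% of all counts in the ACBI libraries. ARG2, the mitochondrial arginase (chromosome 14, 67619920 to 67651705), had 119, 120 and 117 CPM against 2254, 2323 and 2333 CPM, with 248, 232 and 232 CPM in DMSO (-4.28 ± 0.04, adjusted p = 2.52e-33). SH3D21 had 17.2, 19.4 and 18.6 CPM against 413, 401 and 387 CPM (-4.45 ± 0.06). For ARG2 the compounds lay on opposite sides of DMSO, and for SH3D21 both lay above its 9.78 to 11 CPM.

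LAT2, an adaptor of immune receptor signalling, had the largest such difference among genes with at least 4 CPM in the higher group, at 0.292, 0.648 and 0.528 CPM with 2-77 against 49.3, 49.3 and 44.7 CPM with ACBI (-6.64 ± 0.15). HPGD, which degrades prostaglandins, had 0.389, 0.432 and 0.447 CPM against 17.7, 16.3 and 23.6 CPM (-5.50 ± 0.18). GRIN3A, a subunit of NMDA glutamate receptors, had 1.49, 2.07 and 2.15 CPM against 61.1, 60.9 and 57.8 CPM (-4.99 ± 0.10). All 3 genes were below DMSO with 2-77 and above it with ACBI. GALNT12, a mucin-type glycosyltransferase (-5.34 ± 0.28), CHRM4, a muscarinic acetylcholine receptor (-5.08 ± 0.29), GLI1, the effector of hedgehog signalling (-4.44 ± 0.41), PRR16 (-4.31 ± 0.27) and GMNC, a regulator of multiciliated cells (-4.24 ± 0.33), had under 1 CPM in every 2-77 library and 3.81 to 13.1 CPM with ACBI. GLI1 had the highest adjusted p of the 8 genes, 2.59e-09. CHRM4 and ARG2 overlap MDK and VTI1B on the other strand, and the use of strand in counting is not given in the sources used here, so their reads may be mixed. GRIN3A overlaps PPP3R2 on its own strand, and LAT2 overlaps the spans of 12 other genes, 4 of them on its own strand, so counts of both are uncertain.

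**Figure D2:**
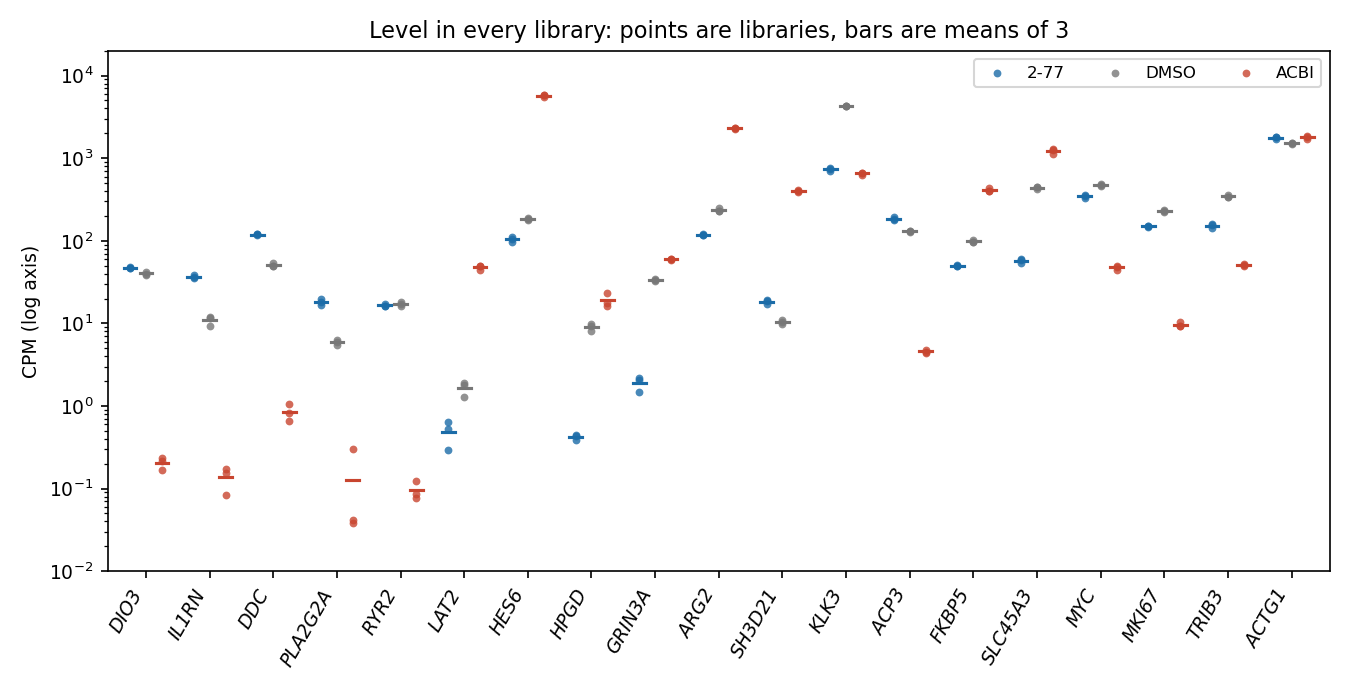
CPM on a log axis in every library of 2-77 (blue), DMSO (grey) and ACBI (red) for 19 genes, with points for the 3 libraries of a group and a bar at their mean. DIO3 to RYR2 are at 1.04 CPM or below in every ACBI library, LAT2 to SH3D21 are higher with ACBI, and 2-77 and ACBI overlap for ACTG1 at 1694 to 1854 CPM.

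Counts of called members in every gene list are to be read beside the 36.8% higher and 33.4% lower over all genes. Those against DMSO are to be read beside 20.5% up and 20.2% down with 2-77, and 35.4% up and 36.6% down with ACBI. Genes of proliferation had the highest medians of the 35 gene lists with at least 5 members tested, and nearly all were higher with 2-77. Of the 44 mitosis and spindle genes tested, 43 were higher with 2-77 and 0 lower, with a median of 3.29 against 0.03 for all genes, and 42 of the 43 differed by at least 2-fold. The count was also 43 without ACBI replicate 3. Summed over the list, the level was 1920 to 1990 CPM with 2-77, 362 to 399 CPM with ACBI and 2850 to 2920 CPM in DMSO. Against DMSO, 43 fell with 2-77 (median -0.59) and 43 fell with ACBI (median -3.94), so both groups lay below the vehicle and ACBI much further below. Because these are bulk samples, fewer cycling cells and less of these RNAs per cycling cell cannot be told apart.

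MKI67, the proliferation marker Ki-67 (chromosome 10, 128096661 to 128126423), had 151, 148 and 152 CPM with 2-77, 10.5, 9.18 and 9.32 CPM with ACBI and 224 to 235 CPM in DMSO. The difference was 3.96 ± 0.06, or 15.5-fold (adjusted p = 1.59e-30). TOP2A, the topoisomerase of mitotic chromosomes, had 102, 103 and 107 CPM against 4.7, 4.52 and 4.56 CPM (4.50 ± 0.07, adjusted p = 4.07e-30). The libraries were tight within each group and far apart between groups for both genes. UBE2C, which tags mitotic cyclins for degradation (4.35 ± 0.09), CENPF, a kinetochore protein (4.12 ± 0.08), the mitotic kinases AURKB (3.64 ± 0.15) and PLK1 (3.32 ± 0.08), and BIRC5, the survivin of the chromosomal passenger complex (3.61 ± 0.07), differed by similar amounts. The cyclin genes differed less evenly, with CCNB2 at 3.56 ± 0.11, CCNA2 at 3.11 ± 0.08 and CCNB1 at 1.70 ± 0.04. BUB3, a checkpoint protein, had the smallest called difference (0.52 ± 0.05).

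CDK1, the kinase that these cyclins activate, was the 1 member not called. It had 76.6, 69.6 and 85.1 CPM with 2-77, 76.1, 83.6 and 110 CPM with ACBI and 93.1, 91.1 and 81.2 CPM in DMSO. The groups overlapped, and the difference of -0.22 ± 0.11 had a 95% interval of -0.47 to 0.03 (adjusted p = 0.1). CDK1 therefore stood apart from CCNB1, CCNB2 and CCNA2, which were all higher with 2-77.

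Replication genes had the same direction with a smaller median. Of 42 genes of DNA replication and nucleotide supply tested, 41 were higher with 2-77 and 1, the primase subunit PRIM2, was lower (-0.69 ± 0.08). Their median was 1.78, and 41 were higher without ACBI replicate 3 as well. The summed level was 2300 to 2340 CPM with 2-77, 780 to 796 CPM with ACBI and 2680 to 2720 CPM in DMSO. RRM2, the regulated subunit of ribonucleotide reductase, had 87.2, 87 and 93.2 CPM against 3.85, 3.74 and 4.23 CPM (4.50 ± 0.07). Origin licensing and firing factors were next, with MCM10 at 4.44 ± 0.10, CDC6 at 4.14 ± 0.10, CDC45 at 3.99 ± 0.14 and CDT1 at 2.59 ± 0.08. The 6 subunits of the replicative helicase ran from MCM6 at 1.29 ± 0.05 and MCM7 at 1.89 ± 0.04 over MCM3, MCM2 and MCM5 to MCM4 at 2.37 ± 0.04. DNA polymerase subunits differed less, such as POLE at 0.47 ± 0.05, POLD1 at 1.01 ± 0.08 and POLA1 at 1.33 ± 0.08.

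The regulators upstream of both groups were split between variable and steady members. Of 25 G1/S genes tested, 18 were higher with 2-77, 2 lower and 5 not called, with a median of 0.45. The E2F genes that are themselves cell cycle-regulated differed most, with E2F2 at 4.69 ± 0.18, E2F7 at 4.47 ± 0.16, E2F1 at 3.19 ± 0.08 and E2F8 at 2.41 ± 0.14. MYBL2, the B-MYB factor of mitotic genes, had 49.2, 48.3 and 47.8 CPM with 2-77 and 2.95, 2.26 and 3.27 CPM with ACBI (4.09 ± 0.08). E2F3, E2F4 and E2F6 differed by 0.23 to 0.45, and E2F5 by 0.03 ± 0.10 (adjusted p = 0.803). CCND1, cyclin D1, had 494, 493 and 489 CPM against 216, 226 and 213 CPM, with 427 to 441 CPM in DMSO (1.17 ± 0.03), so ACBI lay below DMSO and 2-77 above it. RB1, the retinoblastoma protein, was lower with 2-77 (-0.31 ± 0.06), as was CDK6 (-1.55 ± 0.18).

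Of 8 inhibitors of cyclin-dependent kinases tested, 4 were higher with 2-77, 3 lower and 1 not called. Over all genes 36.8% were higher and 33.4% lower. CDKN1A, the p21 protein, had 324, 326 and 315 CPM with 2-77, 111, 103 and 91.4 CPM with ACBI and 271 to 272 CPM in DMSO (1.66 ± 0.05, adjusted p = 5.23e-23). CDKN2B, the p15 protein, had 2.5, 3.11 and 3.09 CPM against 7.73, 7.92 and 9.61 CPM (-1.55 ± 0.16), with 2.15 to 2.94 CPM in DMSO. The ACBI libraries thus held less CDKN1A and more CDKN2B than either of the other groups. CDKN1B, the p27 protein, was lower with 2-77 by a smaller amount (-0.39 ± 0.07).

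Promoters are shown for genes of the groups that moved together, taken from the RefSeq annotation of GRCh38.p14 as the 250 bases before the transcription start, 5′ to 3′ on the gene's strand. Capitals mark the CHR element TTTGAA, the E2F site GGCGGGAA or the ATF4-type element TGATGNAA. Each was searched on both strands, so that a match on the other strand reads as the reverse complement. The genes are those with the smallest p in their list whose window held the motif. MKI67 (chr10:128126424-128126673, minus strand) and TOP2A (chr17:40417897-40418146, minus strand) represent mitosis, MCM3 (chr6:52284743-52284992, minus strand) replication, and ASNS (chr7:97872409-97872658, minus strand) and CHAC1 (chr15:40953221-40953470, plus strand) the integrated stress response. The RefSeq start of ASNS lies inside the span deposited for that gene.
MKI67: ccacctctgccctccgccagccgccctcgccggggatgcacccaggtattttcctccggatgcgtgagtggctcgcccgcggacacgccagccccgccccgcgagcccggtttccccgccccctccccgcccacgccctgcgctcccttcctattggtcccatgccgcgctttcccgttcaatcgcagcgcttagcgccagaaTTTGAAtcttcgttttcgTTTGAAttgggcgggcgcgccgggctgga
TOP2A: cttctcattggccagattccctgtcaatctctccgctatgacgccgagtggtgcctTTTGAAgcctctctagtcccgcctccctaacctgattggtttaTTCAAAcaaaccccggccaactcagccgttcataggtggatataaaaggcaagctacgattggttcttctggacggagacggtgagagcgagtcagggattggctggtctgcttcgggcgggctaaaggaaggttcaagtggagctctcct
MCM3: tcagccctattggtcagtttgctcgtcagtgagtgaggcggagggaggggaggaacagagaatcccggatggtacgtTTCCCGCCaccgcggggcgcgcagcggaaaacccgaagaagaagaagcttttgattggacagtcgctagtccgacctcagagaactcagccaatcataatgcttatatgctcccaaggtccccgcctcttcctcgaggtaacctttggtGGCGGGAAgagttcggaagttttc
ASNS: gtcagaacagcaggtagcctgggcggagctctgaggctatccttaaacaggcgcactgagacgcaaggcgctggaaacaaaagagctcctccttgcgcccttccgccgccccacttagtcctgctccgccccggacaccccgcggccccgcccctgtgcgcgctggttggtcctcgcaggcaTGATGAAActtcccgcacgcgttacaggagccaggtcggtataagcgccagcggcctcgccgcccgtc
CHAC1: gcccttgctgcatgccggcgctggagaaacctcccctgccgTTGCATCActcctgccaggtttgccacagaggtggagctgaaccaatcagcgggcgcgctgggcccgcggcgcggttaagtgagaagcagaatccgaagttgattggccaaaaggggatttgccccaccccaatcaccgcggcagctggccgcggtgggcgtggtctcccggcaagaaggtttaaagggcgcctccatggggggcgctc
The CHR element was found in 21 of 37 mitosis promoters matched (56.8%), against 8.37% of the promoters of 11726 tested genes and 13.6% of 27305 promoters in all. The CCAAT box, letters CCAAT on either strand, was found in 29 of the 37 (78.4%), against 35.1% and 33.0%. The promoter of CDK1, the member without a called difference, held both. The E2F letters were found in 9 of 37 replication promoters (24.3%, against 4.4% and 2.77%). A match is a stretch of letters and not evidence of a bound factor.

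MYC itself was higher with 2-77. It had 347, 363 and 333 CPM with 2-77, 50.1, 48.8 and 44.6 CPM with ACBI and 462, 473 and 489 CPM in DMSO. No library overlapped, and the difference was 2.86 ± 0.05, or 7.26-fold (adjusted p = 4.54e-29). Its dimer partner MAX differed little (-0.12 ± 0.05), the paralog MYCL went the other way (-1.39 ± 0.08), and of 12 genes of the network 7 were higher and 5 lower. Genes of ribosome biogenesis, many of them known MYC targets, were higher in 32 of 33 cases, with a median of 0.93, and in 32 without ACBI replicate 3. ODC1, the first enzyme of polyamine synthesis, had 543, 548 and 513 CPM against 181, 192 and 184 CPM (1.53 ± 0.04), and GNL3, the nucleolar protein nucleostemin, had 272, 272 and 274 CPM against 104, 109 and 115 CPM (1.32 ± 0.04). UBTF, a factor of RNA polymerase I, was the exception (-0.38 ± 0.04). The E-box CACGTG was found in 2 of 27 of these promoters (7.41%), against 8.81% of the promoters of tested genes and 6.49% of all promoters.

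The proteins of the ribosome itself were also higher with 2-77, by a smaller and more even amount. Of 44 cytosolic ribosomal protein genes, 43 were higher, with a median of 0.51 and a range from -0.05 to 0.82. RPS3 had 1181, 1167 and 1126 CPM against 652, 656 and 656 CPM (0.82 ± 0.03), and RPS15 was the 1 not called (-0.05 ± 0.06, adjusted p = 0.445). Their summed level was 43300 to 45500 CPM with 2-77, 30500 to 31500 CPM with ACBI and 43000 to 45000 CPM in DMSO. The 2-77 libraries thus overlapped the vehicle and the ACBI libraries lay below both. Many of these genes have near-identical pseudogenes, so their counts depend on how shared reads were assigned.

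Genes of the integrated stress response were higher with 2-77 than with ACBI, though below DMSO in both. Of 29 tested, 25 were higher with 2-77, 0 were lower and 4 were not called, with a median of 0.86, and 25 were higher without ACBI replicate 3. Against DMSO 25 fell with 2-77 (median -0.52) and 27 fell with ACBI (median -1.41). Among all genes 20.2% fell with 2-77 and 36.6% with ACBI. TRIB3, a pseudokinase that restrains ATF4, had 155, 160 and 145 CPM with 2-77, 52.1, 50.5 and 49.8 CPM with ACBI and 344, 335 and 357 CPM in DMSO (1.59 ± 0.04, adjusted p = 4.56e-24). The 3 groups stood in the order DMSO, 2-77, ACBI with no overlap. The same order held for ASNS, asparagine synthetase, at 190 to 197, 69.1 to 72.6 and 280 to 289 CPM in 2-77, ACBI and DMSO (1.43 ± 0.04). CHAC1, which degrades glutathione, had 29.2, 29.3 and 26.9 CPM against 11.7, 9.66 and 8.87 CPM (1.5 ± 0.08).

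SLC7A5, the large neutral amino acid transporter, had 24.6, 25.7 and 22.7 CPM with 2-77 and 2.33, 2.61 and 2.03 CPM with ACBI (3.39 ± 0.11). STC2, the hormone stanniocalcin 2, had 196, 196 and 198 CPM against 33.5, 32.8 and 34.7 CPM (2.54 ± 0.04). PHGDH, the first enzyme of serine synthesis, had 508, 511 and 482 CPM against 147, 151 and 142 CPM (1.77 ± 0.04). ATF4 mRNA differed by 0.51 ± 0.04 and DDIT3, the CHOP factor, by 0.86 ± 0.05. ATF3 (0.01 ± 0.06, adjusted p = 0.927) and the cystine transporter SLC7A11 (0.19 ± 0.11, adjusted p = 0.117) were not called. FGF21 had 25 counts with 2-77 and 0 with ACBI, at least 7.72-fold higher against 3 counts over the group, and putting it at that bound left the median at 0.86. The element TGATGNAA was found in 4 of 24 promoters of the list (16.7%), those of ATF3, CHAC1, ASNS and FGF21. It was found in 1.43% of the promoters of tested genes and in 3.19% of 27305 promoters in all.

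Cytosolic aminoacyl-tRNA synthetases, which charge transfer RNAs with amino acids, were higher with 2-77 in 18 of 20 cases with a median of 0.44, and none was lower. GARS1 differed most (0.99 ± 0.04), with 235, 228 and 226 CPM against 118, 118 and 112 CPM and 331 to 339 CPM in DMSO. HARS1 and QARS1 were not called (-0.01 ± 0.04 and 0.08 ± 0.04). Of 22 genes of the unfolded protein response and endoplasmic reticulum folding, 15 were higher and 5 lower, with a median of 0.40. XBP1, a transcription factor of that response, had 199, 199 and 189 CPM against 100, 98.4 and 101 CPM (0.97 ± 0.04), and the sensor EIF2AK3 differed by 0.97 ± 0.05. Lower members were EDEM1 (-0.44 ± 0.04), DNAJB9 (-0.34 ± 0.09) and DNAJC3 (-0.33 ± 0.06).

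**Figure D3:**
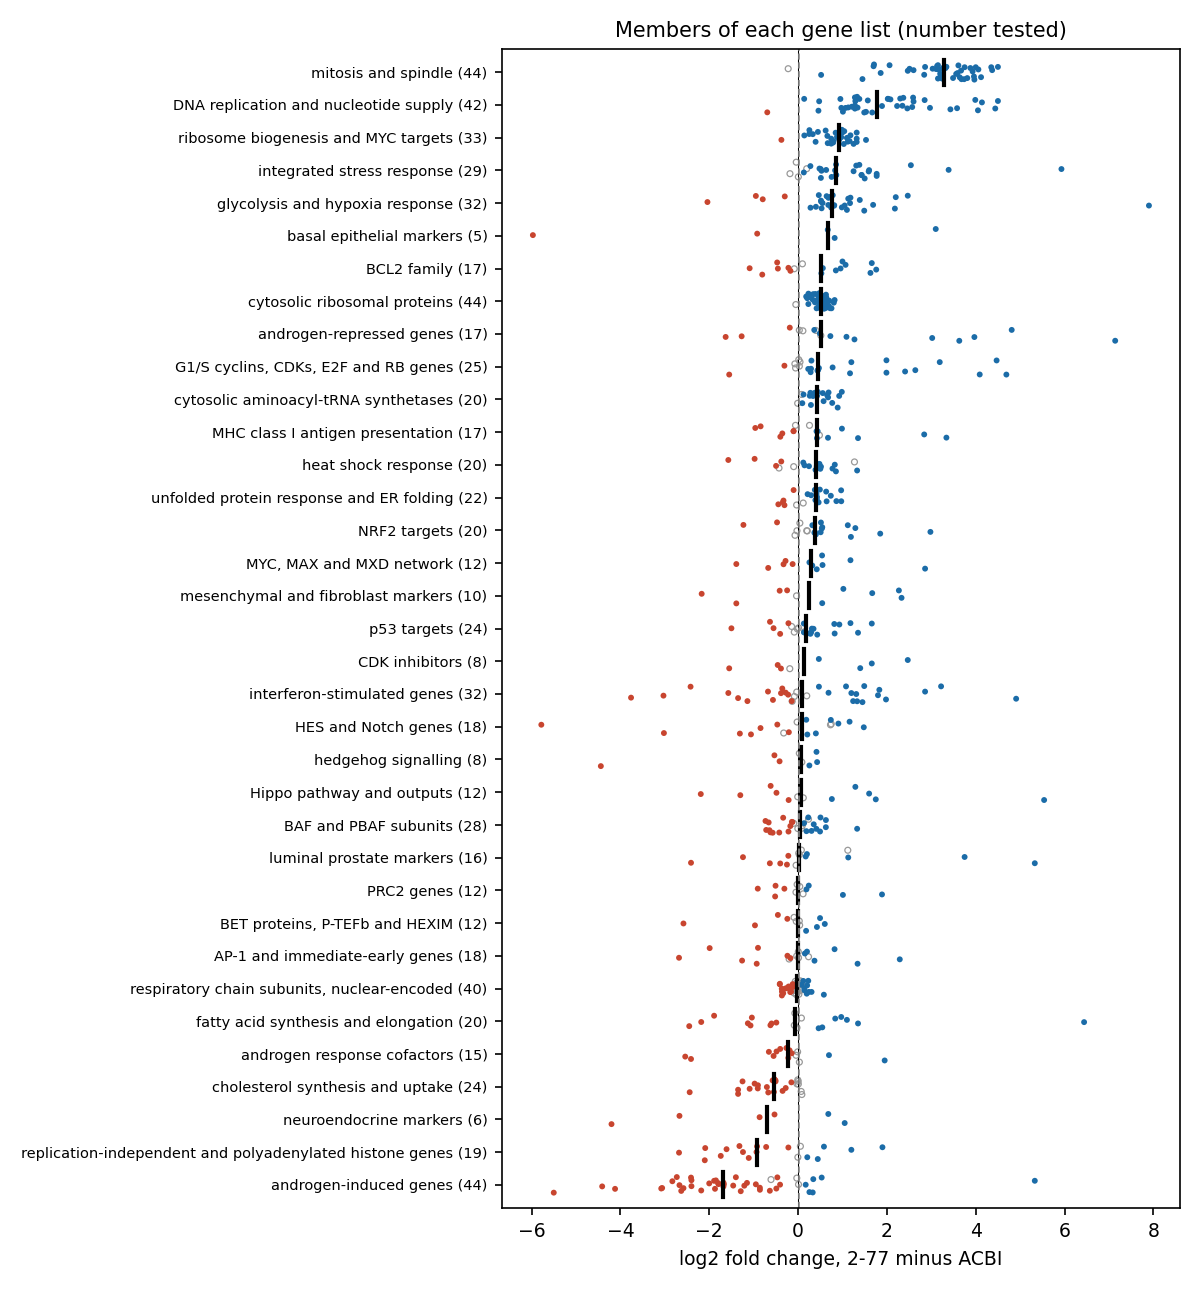
Log2 fold change, 2-77 minus ACBI, of every tested member of the 35 gene lists with at least 5 members tested, sorted by median, with the number tested in brackets. Filled points were called (blue higher and red lower with 2-77), open grey points were not, black bars are list medians and the dashed line is the median of all genes at 0.03. Mitosis (3.29) and replication (1.78) lie at the top and androgen-induced genes (-1.68) at the bottom.

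Androgen-induced genes formed the list with the lowest median. Of 44 tested, 35 were lower with 2-77 than with ACBI, 6 were higher and 3 were not called, with a median of -1.68, and 35 were lower without ACBI replicate 3. Their summed level was 5010 to 5060 CPM with 2-77, 13000 CPM in each ACBI library and 13800 to 13900 CPM in DMSO. Against DMSO 37 fell and 5 rose with 2-77 (median -1.14), while 15 fell and 23 rose with ACBI (median 0.35). Among all genes 20.2% fell and 20.5% rose with 2-77, and 36.6% fell and 35.4% rose with ACBI. The 15 that fell with ACBI were thus near the share over all genes.

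The kallikreins showed that members of the list did not move as one. KLK3, prostate-specific antigen (chromosome 19, 50854915 to 50860764), had 750, 752 and 710 CPM with 2-77, 668, 668 and 626 CPM with ACBI and 4325, 4232 and 4276 CPM in DMSO. It was lower than DMSO by similar amounts with each compound (-2.54 with 2-77 and -2.71 with ACBI), and their difference of 0.17 ± 0.03, though called (adjusted p = 1.65e-05), had an interval of 0.11 to 0.24, within 0.32 of 0 on the log2 scale. KLK2 was likewise slightly higher with 2-77, at 51, 46.5 and 46.2 CPM against 34.2, 33.1 and 32.1 CPM (0.53 ± 0.04). KLK4 went the other way (-2.40 ± 0.06), below DMSO with 2-77 (-1.56) and above it with ACBI (0.84). TMPRSS2, a protease whose promoter is often fused to ERG in prostate cancer, had 141, 138 and 130 CPM with 2-77, 208, 217 and 211 CPM with ACBI and 805 to 809 CPM in DMSO (-0.64 ± 0.04).

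Another group was above DMSO with ACBI. HPGD, described above, belongs to it. FKBP5, a co-chaperone of steroid receptors (chromosome 6, 35573585 to 35728583), had 49.8, 49 and 50.3 CPM with 2-77, 405, 404 and 433 CPM with ACBI and 96.3 to 104 CPM in DMSO (-3.06 ± 0.04, adjusted p = 2.79e-30). SLC45A3, the prostein of prostate epithelium, had 59.7, 57.9 and 54.6 CPM, 1276, 1269 and 1110 CPM, and 429 to 447 CPM in the same order (-4.41 ± 0.06). CAMKK2, a calcium-dependent kinase upstream of AMPK, had 156, 147 and 150 CPM, 822, 804 and 766 CPM, and 219 to 229 CPM (-2.40 ± 0.04). The 2-77 libraries were below and the ACBI libraries above every DMSO library for these 3 genes. ELL2 (-2.58 ± 0.07), MAF (-2.67 ± 0.06) and ZBTB16 (-2.63 ± 0.05) followed the same order. NCAPD3, a condensin subunit, was higher with ACBI (-2.83 ± 0.04), and it overlaps JAM3 and VPS26B on the other strand.

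ACP3, prostatic acid phosphatase, was the exception of the list. It had 182, 180 and 194 CPM with 2-77, 4.78, 4.44 and 4.56 CPM with ACBI and 128 to 133 CPM in DMSO. ACP3 was thus higher with 2-77 than in the vehicle and under 5 CPM with ACBI (5.33 ± 0.06, 40.3-fold, adjusted p = 1.32e-32). The other 3 members higher with 2-77, beside KLK2 and KLK3, differed by 0.26 to 0.34.

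Androgen-repressed genes leaned the other way. Of 17 tested, 10 were higher with 2-77, 3 lower and 4 not called, with a median of 0.51, and 11 were higher without ACBI replicate 3. Against DMSO 12 rose and 3 fell with 2-77, while 6 rose and 10 fell with ACBI. Among all genes 20.5% rose and 20.2% fell with 2-77, and 35.4% rose and 36.6% fell with ACBI. The 6 that rose with ACBI were thus near the share over all genes. CAMK2N1, an inhibitor of calcium/calmodulin kinase II, had 465, 481 and 471 CPM with 2-77, 16.4, 15.4 and 18.7 CPM with ACBI and 197 to 209 CPM in DMSO (4.81 ± 0.05, adjusted p = 6.28e-33). DDC, described above, is a member. UGT2B17 and UGT2B15, which glucuronidate androgens, had 270 to 275 and 221 to 243 CPM with 2-77 against 17.1 to 17.9 and 18.6 to 19.1 CPM with ACBI (3.97 ± 0.05 and 3.63 ± 0.05). For CAMK2N1, UGT2B17 and UGT2B15, 2-77 lay above DMSO and ACBI below it, and the near-identical UGT2B genes may share reads. OPRK1, the kappa opioid receptor, was above DMSO in both groups, at 19.8, 18.5 and 22 CPM with 2-77, 9.01, 8.57 and 7.5 CPM with ACBI and 1.98 to 3.49 CPM in DMSO (1.27 ± 0.10). MAOA, a monoamine oxidase, was lower with 2-77 (-1.63 ± 0.04).

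Cofactors of the androgen response had a modest median difference, though 1 was at least 2-fold higher with 2-77 and 2 at least 2-fold lower. Of 15 genes, 10 were lower with 2-77 and 2 higher, with a median of -0.22. GATA2, a pioneer factor at androgen-regulated enhancers, had 315, 315 and 293 CPM with 2-77 and 86.9, 78 and 73.3 CPM with ACBI, against 254 to 256 CPM in DMSO (1.95 ± 0.05). FOXA1 differed by -0.22 ± 0.03, and HOXB13 by -0.04 ± 0.04 (95% interval -0.13 to 0.04, adjusted p = 0.365). NR3C1, the glucocorticoid receptor, another steroid-activated factor, was lower with 2-77 (-2.54 ± 0.26), at -0.61 against DMSO with 2-77 and 1.93 with ACBI.

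**Figure D4:**
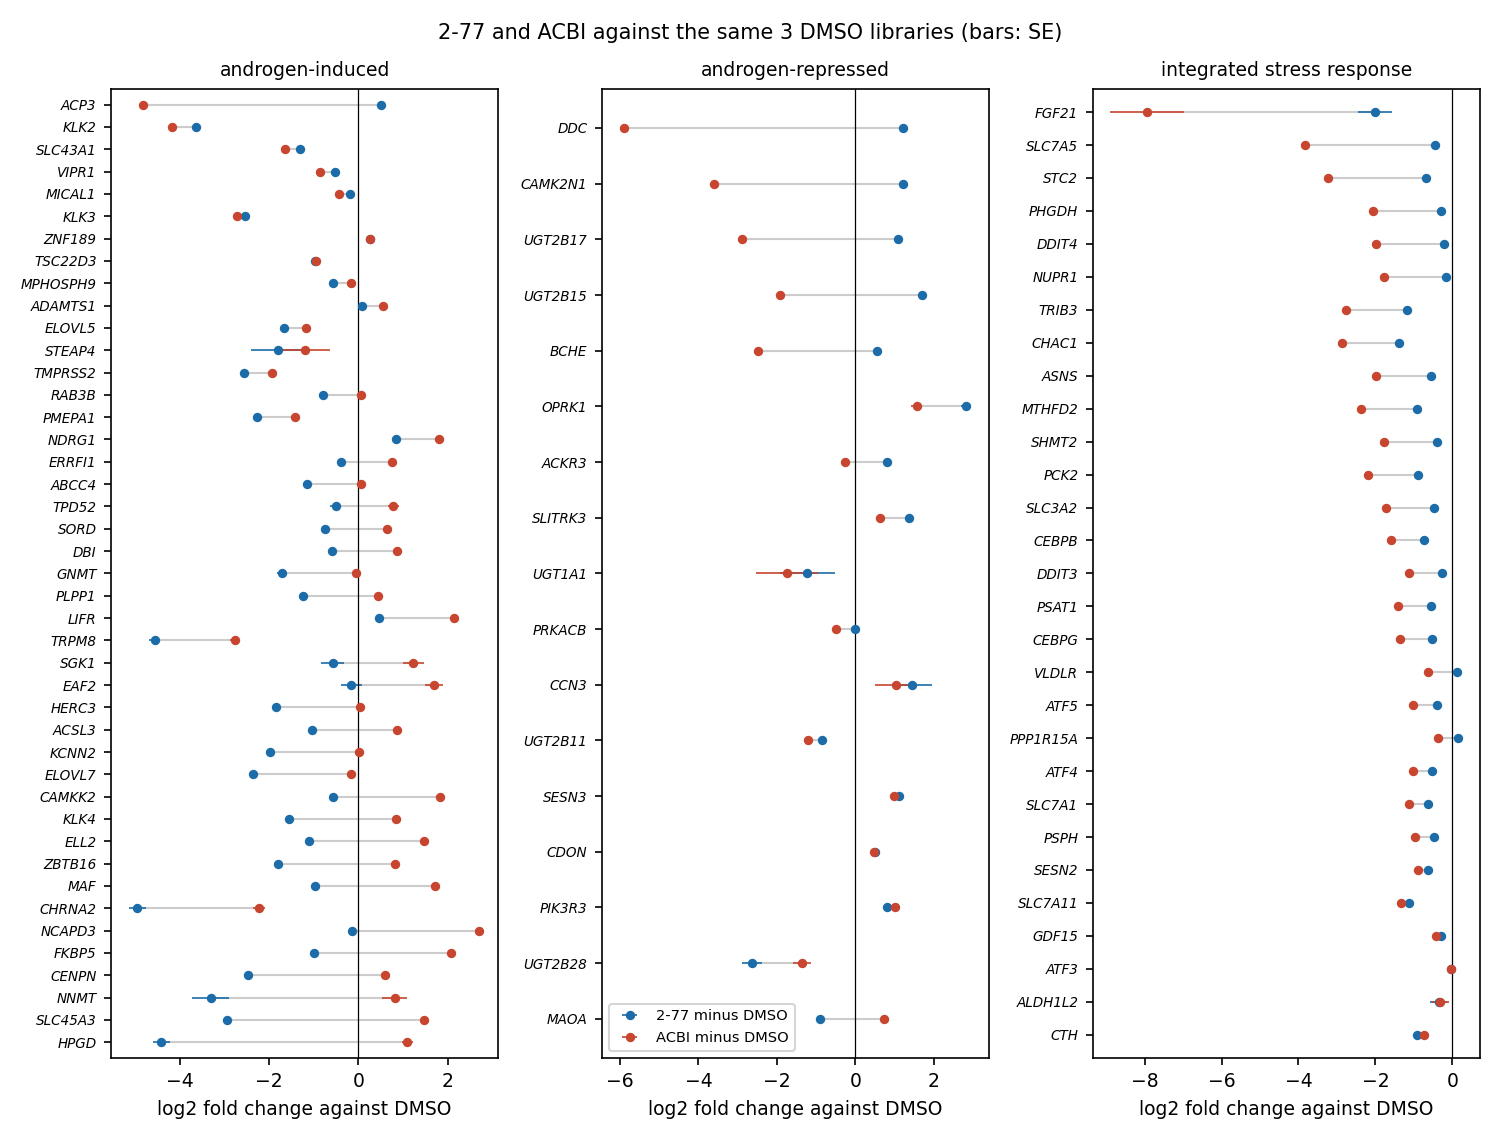
Log2 fold change against the same 3 DMSO libraries with 2-77 (blue) and ACBI (red) for 43 of the 44 tested androgen-induced genes, and for each tested androgen-repressed gene and gene of the integrated stress response, with bars of 1 SE. Androgen-induced genes lie mostly left of 0 with 2-77 (median -1.14) and on both sides with ACBI (median 0.35), and stress response genes lie left of 0 with both, further left with ACBI (medians -0.52 and -1.41). FGF21 had 0 counts with ACBI, so its fitted value there depends on the prior count.

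Glycolysis and hypoxia genes were higher with 2-77 in 28 of 32 cases and lower in 4, with a median of 0.76. Against DMSO 28 rose and 1 fell with 2-77, and 7 rose and 21 fell with ACBI. The shares over all genes were 20.5% and 20.2% with 2-77, and 35.4% and 36.6% with ACBI. PFKFB3, which makes the glycolytic activator fructose 2,6-bisphosphate, had 98.9, 95.1 and 96.1 CPM with 2-77, 16.9, 18 and 17.4 CPM with ACBI and 37.9 to 42.1 CPM in DMSO (2.47 ± 0.05). VEGFA, the angiogenic growth factor, had 565, 560 and 551 CPM against 131, 120 and 117 CPM (2.18 ± 0.04), and LDHA, lactate dehydrogenase A, 1916, 1898 and 1895 CPM against 659, 677 and 694 CPM (1.49 ± 0.03). Each lay above DMSO with 2-77 and below it with ACBI. CA9, carbonic anhydrase 9, had 101 counts with 2-77 and 0 with ACBI, at least 31.2-fold higher, and the median was 0.76 with CA9 at that bound as well. Lower members were ANKRD37 (-2.04 ± 0.14), NDRG1 (-0.95 ± 0.04), HK1 (-0.80 ± 0.04) and EGLN1 (-0.30 ± 0.04), so the hexokinases HK1 and HK2 (1.18 ± 0.04) differed in opposite directions.

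Cholesterol synthesis and uptake genes were lower with 2-77 in 18 of 24 cases, higher in 0 and not called in 6, with a median of -0.54. Against DMSO 3 rose and 8 fell with 2-77, and 18 rose and 3 fell with ACBI. The shares over all genes were 20.5% and 20.2% with 2-77, and 35.4% and 36.6% with ACBI. The sterol sensor partner INSIG1 had 79.1, 78.4 and 81.1 CPM with 2-77, 197, 198 and 213 CPM with ACBI and 82.2 to 85 CPM in DMSO (-1.35 ± 0.04). LSS, which closes the sterol ring system, was lower as well (-1.25 ± 0.05). Against DMSO, INSIG1 differed by -0.07 with 2-77 and by 1.28 with ACBI. SQLE, FDFT1 and EBP were not called (-0.01, -0.02 and 0.00). Of 20 fatty acid genes 7 were higher and 9 lower, near the shares of 36.8% and 33.4% over all genes. SCD, which makes monounsaturated fatty acids, was higher with 2-77 (0.97 ± 0.03), ACACA, acetyl-CoA carboxylase, was lower (-1.07 ± 0.04), and FASN differed by -0.07 ± 0.05 (95% interval -0.17 to 0.02, adjusted p = 0.171). ACACA overlaps the spans of 7 other genes, 4 of them on its own strand, so its count is uncertain. THRSP, a lipogenic factor, had 130 counts with 2-77 and 1 with ACBI, a ratio of 121 (counting interval 21.2 to 4800).

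Nuclear-encoded respiratory chain subunits were the steadiest list. Of 40 tested, 10 were higher, 15 lower and 15 not called, with a median of -0.03, and 29 had intervals within 0.32 of 0 on the log2 scale, against 21.9% of all genes. The range ran from NDUFB5 at -0.41 ± 0.05 to CYC1 at 0.58 ± 0.04. With library totals in place of TMM factors 9 were lower and the median was 0.024. NRF2 targets were higher with 2-77 in 13 of 20 cases and lower in 2, with a median of 0.39, among them FTH1, ferritin heavy chain (1.29 ± 0.04), and TKT, transketolase (1.19 ± 0.04), while HMOX1, heme oxygenase 1, was lower (-1.23 ± 0.09). Heat shock genes were higher in 13 of 20 and lower in 4, with a median of 0.41. HSPD1, the mitochondrial chaperonin, had 986, 981 and 1001 CPM against 377, 387 and 413 CPM (1.33 ± 0.04), and DNAJB4 was lower (-1.57 ± 0.13).

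Most subunits of the BAF and PBAF remodelling complexes differed by less than 2-fold. Of 28 tested, against 36.8% higher and 33.4% lower over all genes, 11 were higher with 2-77, 12 lower and 5 not called, with a median of 0.04 that was -0.0275 with a filter of at least 5 CPM in 3 libraries, and 10 had intervals within 0.32 of 0. BRD7, the PBAF bromodomain subunit named in the series' title, had 63, 61.1 and 61.5 CPM with 2-77, 53.4, 58.8 and 61.8 CPM with ACBI and 54.1 to 59.8 CPM in DMSO. The groups overlapped and the difference was 0.09 ± 0.06 (95% interval -0.03 to 0.22, adjusted p = 0.167, and 0.028 when library totals replaced the TMM factors). The ATPase SMARCA2 had 57.8 to 61.9 CPM against 58 to 65.5 CPM (-0.01 ± 0.05, 95% interval -0.11 to 0.10), and its paralog SMARCA4 had 241 to 255 CPM against 188 to 208 CPM (0.30 ± 0.04). BRD9 (0.23 ± 0.06) and the PBAF subunit PBRM1 (0.35 ± 0.04) were slightly higher with 2-77. ARID2, which defines PBAF, was lower, at 87.8, 91.4 and 89.1 CPM against 150, 144 and 147 CPM (-0.72 ± 0.04), with 77.4 to 78.4 CPM in DMSO. SMARCD3 was the 1 subunit with a difference above 2-fold, at 39, 38.3 and 34.5 CPM against 15.6, 15.5 and 13.5 CPM (1.33 ± 0.07). It was above DMSO (16.3 to 17.8 CPM) with 2-77, and the ACBI libraries were just below it.

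Of 12 BET, P-TEFb and HEXIM genes, 4 were higher and 4 lower, near the shares of 36.8% and 33.4% over all genes. HEXIM1, the inhibitor of P-TEFb, had 113, 109 and 119 CPM with 2-77, 226, 214 and 228 CPM with ACBI and 84.9 to 90.3 CPM in DMSO (-0.97 ± 0.04), so both compounds lay above the vehicle. Of 12 PRC2 genes, 4 were higher and 4 lower, again near the shares over all genes. EZH2, the methyltransferase, was higher with 2-77 at 24 to 26.5 CPM against 11.5 to 13.4 CPM (1.01 ± 0.09), EPOP was higher (1.89 ± 0.07), and SUZ12 was not called (-0.05 ± 0.08, adjusted p = 0.592).

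Histone genes that yield polyadenylated transcripts were lower with 2-77 in 12 of 19 cases and higher in 5, with a median of -0.92. H2AC18 had 38.6, 38.6 and 33.2 CPM with 2-77 and 248, 234 and 225 CPM with ACBI, with 28.9 to 32 CPM in DMSO (-2.68 ± 0.05). H2BC21 had 154, 156 and 147 CPM against 471, 465 and 459 CPM (-1.61 ± 0.04). H2AX, whose phosphorylated product marks DNA breaks, went the other way at 239, 246 and 218 CPM against 65.6, 63.8 and 59.7 CPM (1.90 ± 0.04). H2AC18 was above DMSO in every library of both compounds, further with ACBI, and H2AX was below DMSO with both. Of the 19 genes, 7 rose and 5 fell against DMSO with 2-77, and 12 rose and 5 fell with ACBI. The shares over all genes were 20.5% and 20.2% with 2-77, and 35.4% and 36.6% with ACBI. Near-identical copies, such as H2AC18 and H2AC19, may share reads.

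In the signalling lists the shares called in each direction were near those over all genes, 36.8% higher and 33.4% lower, so the counts say nothing particular of them. Of 18 HES and Notch genes, 7 were higher and 7 lower. Beside HES6, HEY1 was lower with 2-77 (-3.02 ± 0.33), while the receptor NOTCH1, at 64.6, 64.4 and 61.9 CPM against 24.5, 24.2 and 19.6 CPM, was higher (1.48 ± 0.06), as was the ligand JAG2 (1.16 ± 0.04). GLI1 stood alone among 8 hedgehog genes, since its usual companion target PTCH1 differed by -0.53 ± 0.07 and was below DMSO in both groups (-0.76 with 2-77 and -0.22 with ACBI). Of 12 Hippo genes, 5 were higher and 5 lower, with the junctional scaffold AMOTL1 at 10.2, 7.43 and 9.79 CPM against 0.194, 0.13 and 0.249 CPM (5.54 ± 0.21). Of 18 AP-1 and immediate-early genes, 6 were higher and 7 lower. EGR1 was lower with 2-77, at 1.62 to 2.16 CPM against 11.4 to 13.4 CPM (-2.68 ± 0.18), and the MAP kinase phosphatase DUSP6 was higher (2.29 ± 0.36).

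Of 24 p53 targets, 14 were higher with 2-77 and 5 lower, with a median of 0.17. Over all genes 36.8% were higher and 33.4% lower. BTG2 (1.35 ± 0.05) and SESN1 (1.18 ± 0.04) were higher beside CDKN1A, TP53I3 was lower (-1.50 ± 0.09), and MDM2 differed by 0.13 ± 0.06. In the BCL2 family 9 of 17 were higher and 6 lower, the latter near the share over all genes. BCL2L1, the survival protein BCL-XL, had 112, 114 and 112 CPM with 2-77 and 246, 244 and 232 CPM with ACBI (-1.09 ± 0.04), while the related survival genes BCL2 (1.66 ± 0.16) and MCL1 (0.56 ± 0.04) were higher with 2-77. Among genes that promote cell death, BID (1.76 ± 0.09), PMAIP1 (1.07 ± 0.12) and BCL2L11 (0.96 ± 0.05) were higher and BAX was slightly lower (-0.22 ± 0.06).

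Of 32 interferon-stimulated genes 15 were higher with 2-77 and 13 lower, against 36.8% and 33.4% of all genes, and the genes named here are examples. HERC5, the ligase that attaches ISG15, had 4.83, 5.27 and 4.39 CPM with 2-77, 38.5, 39.5 and 40.6 CPM with ACBI and 4.25 to 5.21 CPM in DMSO (-3.03 ± 0.10), and HERC6 (-2.42 ± 0.08), IRF9 (-1.57 ± 0.10) and the RNA sensor IFIH1 (-1.35 ± 0.09) were also lower with 2-77. OASL (3.22 ± 0.35), IFIT3 (2.86 ± 0.36) and IFI44 (1.98 ± 0.23) were higher. With a filter of at least 5 CPM in 3 libraries, 7 were counted as higher, since most of that group was weakly expressed. In class I antigen presentation, 8 of 17 were higher and 6 lower. NLRC5, a regulator of this pathway, had 11.7, 11.9 and 10.7 CPM with 2-77 and 1.79, 1.44 and 1.53 CPM with ACBI (2.84 ± 0.14), and B2M, the light chain of class I molecules, differed by -0.10 ± 0.04.

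Markers of cell identity were measured in the same libraries. Luminal markers were plentiful in both groups, with a summed level of 7850 to 7920 CPM with 2-77 and 8230 to 8390 CPM with ACBI, against 12200 to 12300 CPM in DMSO. Of 16, 5 were higher and 6 lower, against 36.8% and 33.4% of all genes. EPCAM, KRT18 and HOXB13 were not called, CDH1, E-cadherin, was lower with 2-77 at 813 to 826 CPM against 1936 to 1940 CPM (-1.24 ± 0.03), and KRT19 was higher (3.75 ± 0.32). The summed level does not describe each marker, since ACP3, also on the list, had 4.44 to 4.78 CPM with ACBI. Against DMSO, 4 of the 16 rose and 7 fell with 2-77, and 4 rose and 9 fell with ACBI. Over all genes those shares were 20.5% and 20.2% with 2-77 and 35.4% and 36.6% with ACBI. Neuroendocrine markers summed to 439 to 479 CPM with 2-77 and 655 to 763 CPM with ACBI, most of it SYT4 (-0.87 ± 0.06). SYP, synaptophysin, was at 1.87 to 2.55 CPM against 13.6 to 15 CPM (-2.67 ± 0.15), and 4 of 6 tested markers were lower with 2-77 and 2 higher. Their part in the HES6 difference was not tested.

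Mesenchymal markers summed to 644 to 652 CPM with 2-77 and 2550 to 2760 CPM with ACBI, nearly all of it FN1, fibronectin, at 589, 580 and 583 CPM against 2722, 2674 and 2511 CPM (-2.17 ± 0.04). VIM, vimentin, went the other way, at 26.5 to 29.5 CPM against 5 to 6.02 CPM (2.33 ± 0.09), and FAP was at 0 in the 6 libraries. Of 10 such markers 5 were higher and 4 lower, against 36.8% and 33.4% of all genes. Without ACBI replicate 2, 3 were higher, and with a filter of at least 5 CPM 2 were. Basal markers summed to 74.7 to 80.5 CPM and 65.4 to 67.9 CPM, with CD44 at 0 and 3 of 5 tested higher with 2-77 and 2 lower. This sum does not describe each marker either. KRT14, a basal keratin and 1 of the 2 lower, had 82 counts with ACBI and 1 with 2-77. That is a ratio of 88.5 (95% counting interval 15.4 to 3540). Immune markers summed to 5.44 to 5.84 and 6.92 to 8.13 CPM with PTPRC at 0, and both tested members were lower with 2-77. Endothelial markers summed to 6.46 to 7.2 and 0.66 to 1.22 CPM, and both tested members were higher.

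Where the compounds did not differ beyond a small bound can be stated as well. For 3373 genes (21.9%) the 95% interval of the difference lay within 0.32 of 0 on the log2 scale. The most abundant of them were the cytoskeletal actin ACTG1 at 1694 to 1815 CPM with 2-77 and 1714 to 1854 CPM with ACBI (-0.02 ± 0.03), the ribosomal protein genes RPL15 (0.21 ± 0.03) and RPL41 (0.06 ± 0.08), the stress cytokine GDF15 and the nuclear long noncoding RNA NEAT1 (-0.19 ± 0.04). GDF15 had 1610, 1665 and 1477 CPM against 1548, 1468 and 1326 CPM, which overlapped, and its called difference of 0.13 ± 0.05 (adjusted p = 0.0129) was lost without ACBI replicate 3 (0.0659, adjusted p = 0.135) and without 2-77 replicate 2 (0.0923, adjusted p = 0.0948). The other actin gene, ACTB, was lower with 2-77 at 1743 to 1795 CPM against 2762 to 3145 CPM (-0.73 ± 0.04).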

How the data were processed

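Poly(A) RNA of LNCaP cells was sequenced from stranded libraries, per the labels' protocols. The submitters' processing notes name STAR, Partek, DESeq2 and hg38. The deposited table gives estimated counts per gene (expected counts, not always whole). The counting program, its use of strand and the annotation are not given in the sources used here. Further named genes beside those marked above overlap other genes, among them FKBP5 on its own strand, and the same limit holds for them. Counts were rounded and fitted over all 18 libraries (6 groups) with edgeR 4.0.16 (filterByExpr, TMM factors, robust quasi-likelihood test, Benjamini-Hochberg adjustment over 15422 genes). The filter removed 4723 of 20145 genes. SE is the size of the log2 fold change divided by the square root of F. CPM use TMM-scaled library totals. In one of the 6 libraries 3 counts equal 0.0973 to 0.13 CPM. The procedure was tested on simulated counts.

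Replicate libraries of each group differed by more than sampling noise, so each counted as 1 sample. In 3 same-numbered pairs of a 2-77 and an ACBI library, deviations from the group means correlated at 0.0726, 0.0511 and 0.193 over all genes. Over the more abundant genes they correlated more strongly, as given below. Samples were treated as unpaired, with a replicate block as an alternative. The members and the 38 gene lists (834 genes, of which 798 were in the table and 744 were tested) were chosen with earlier results of these data known. Genes were named by rule: the 12 largest called differences in each direction (at least 4 CPM in the higher group, no overlap), the 4 smallest p of each list with at least 5 tested, 25 fixed genes, and the 5 most abundant genes bounded within 0.32 of 0 on the log2 scale. Other members are named as examples, and some genes that the rule names are not reported here. The mitochondrially encoded genes (0 of 13 in the test) and the basal markers KRT5 and TP63 were not analysed here. Alternatives were DESeq2 1.42.0, RLE factors, library totals, no filter, at least 5 CPM in 3 libraries, a fit of only the 2 groups, a replicate block, no ribosomal RNA genes, and leaving out each library.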

Additional observations from a re-analysis of the deposited data

How the results depend on the processing

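Over 15 alternatives the number of called genes ran from 9069 to 11108 (10823 as reported), and leaving out 1 library gave 10301 to 10676. DESeq2 called 10719. Library totals moved the split to 6118 higher and 4527 lower, 57.5% higher against 52.4%. Of 169 named genes 164 had 1 direction and 1 call in every setting. With at least 5 CPM in 3 libraries, 1713 genes differed by 2-fold or more against 3003, since weakly expressed genes were removed.

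Labels share replicate numbers but name no shared source. Same-numbered 2-77 and ACBI libraries correlated at 0.355, 0.442 and 0.665 over 8469 genes of at least 20 CPM. Differently numbered pairs of replicates 1 and 2 reached 0.322 and 0.506, and those with a replicate 3 ran from -0.581 to -0.41. Deviations within a group sum to 0 for each gene, so these correlations depend on each other. The negative values follow in part from the positive ones and add no separate evidence. Replicate 3 of both groups deviated alike (0.665), also without ribosomal RNA genes (0.605). Whether this came from a shared source was not tested. With a replicate block, 10758 genes were called in all 18 libraries and 10884 in the 6 libraries, and no named gene's call changed.

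For the values that follow, the cause was not tested. Member counts moved past 1.5 times for interferon genes (7 higher) and mesenchymal markers (2 higher) with at least 5 CPM, hedgehog genes (1 higher) without 2-77 replicate 1, mesenchymal markers (3 higher) without ACBI replicate 2, and respiratory genes (9 lower) with library totals. Medians near 0 changed sign. With at least 5 CPM these were CDK inhibitors -0.162, BAF and PBAF -0.0275, hedgehog -0.17, interferon -0.159, AP-1 0.012 and mesenchymal -0.221. With library totals they were BET 0.0494, AP-1 0.0425 and respiratory 0.024. In the fit of only the 2 groups they were Notch -0.0365 and interferon -0.0446, and with the block added -0.0401 and -0.0459. With 1 library left out, medians ran from -0.00285 to 0.0621 for BAF and PBAF, from -0.0429 to 0.107 for PRC2 and from -0.06 to 0.0307 for AP-1. Uncalled genes that changed sign were SMARCA2 (0.0515 with library totals, 0.0189 with at least 5 CPM) and ACTG1 (0.0375 and 0.00848 in the same settings). With 1 library left out, SMARCA2 ran from -0.0406 to 0.0476, ACTG1 from -0.0512 to 0.0163 and RPL41 from -0.0344 to 0.146. BRD7 was called with library totals (0.151, adjusted p = 0.028). GDF15 was also not called in the fit of only the 2 groups (0.117, adjusted p = 0.112).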
